A study of Drosophila melanogaster with 5 samples.

Results

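The proteasome is the barrel-shaped protease that degrades ubiquitin-tagged proteins in the cytosol and nucleus. Its core particle stacks rings of alpha subunits, which gate the entrance, on rings of beta subunits, some of which carry the active sites. A regulatory particle caps the core: its base holds a ring of ATPases (Rpt) that unfold substrates, and the non-ATPase subunits (Rpn) of base and lid bind substrates and remove ubiquitin. Drosophila also carries duplicated copies of several subunit genes, some of which are known from the male germ line.

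The proteasome subunit genes described here are those whose array annotation names a single gene with a symbol starting with Prosalpha, Prosbeta, Rpt or Rpn. They numbered 39 of the 10844 genes with a probe set of their own, and 41 probe sets stood for them. Each gene was represented by its probe set with the highest mean signal. By symbol, 26 were somatic subunits (6 alpha, 6 beta, 7 of the base and 7 of the lid), 4 were testis-specific copies (symbols with T) and 9 were related copies (symbols with R). Prosalpha1, Prosbeta1, Rpn9, Rpn10, Rpt1 and Rpt6 were not analysed here.

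RNA came from heads of Drosophila melanogaster pupae at 80 h after pupa formation. Every array had its own extraction from a pool of 15 to 20 heads, on an Affymetrix array. Canton S, the wild type, gave 2 arrays. The mutant strain otd-uvi gave 3, and the labels call its allele of the homeobox gene orthodenticle (otd, also oc) eye-specific. They give no sex, genetic background or batch. Values are the authors' MAS5 signals. A log2 difference is otd-uvi minus Canton S on the log2(signal + 8) scale, with its standard error (SE), 95% interval and adjusted p from limma over 13966 probe sets. With so few arrays the precision is limited throughout.

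Median signals of whole arrays lay between 39.96 and 43.1. The brightest of 8 mouse and yeast controls, whose targets fly RNA lacks, reached 9.30 and 9.13 in Canton S, and 22.9, 11.2 and 16.2 on otd-uvi arrays 1, 2 and 3. A probe set is called measured on an array where it exceeded that array's brightest control. Of 5 photoreceptor markers 4 fell in otd-uvi (chp, trp, inaD and Arr2), against 0.451% of all probe sets. All 5 neuronal markers were below 0 without passing the test. In whole heads, fewer cells of a type and less RNA per cell cannot be told apart.

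Somatic proteasome genes as a group differed little between mutant and wild-type heads. The 13 copies were too dim for such a statement, as none was measured on all 5 arrays. None of the 39 passed an adjusted p of 0.05 in limma, where 0.773% of all probe sets did (0.322% higher and 0.451% lower in otd-uvi). An unadjusted p under 0.05 was reached by 5 genes, against 15.0% of all probe sets: 4 were higher (Prosbeta5R1, Rpn12R, Prosbeta4R1 and Rpn8, against 7.77%) and 1 was lower (Rpn5, against 7.27%). Groups did not overlap for 12 of the 39 genes (30.8%), against 34.0% of all probe sets. Of these 12, 7 were higher and 5 lower, where the array as a whole had 18.6% and 15.4%. Both shares lay near the background of the array.

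All 26 somatic genes were measured on every array. Their median log2 difference was -0.02, beside 0.05 for all probe sets and -0.13 for the 2226 probe sets within their range of mean signal. In 23 of the 26 the log2 difference was under 0.25 in size. Groups did not overlap for 7 of the 26 (26.9%), against 40.5% of probe sets in the same signal range. The 95% interval lay within -1 and 1 for 25 of the 26, the exception being Rpn8, against 59.5% of all probe sets and 79.1% of those in the same signal range. The summed signal of the 26 genes averaged 12289 ± 315 (SD, n = 2) in Canton S and 11900.3 ± 540 (SD, n = 3) in otd-uvi, a ratio of 0.968. The sums differed by less than the SD among otd-uvi arrays. The sign of so small a median depended on the scaling: it was 0.12 after quantile normalization and 0.09 after cyclic loess.

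**Figure D1:**
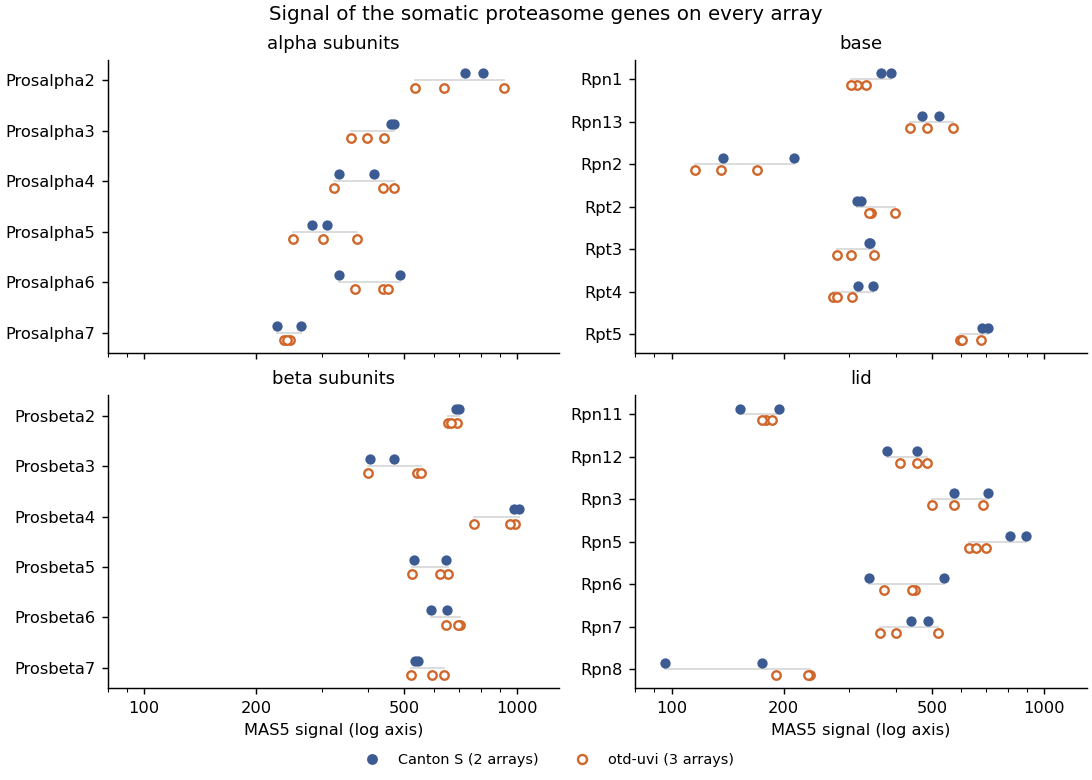
MAS5 signal (log axis) of the 26 somatic proteasome genes, by part of the complex, with 1 point for each of 2 Canton S and 3 otd-uvi arrays. Points of both strains intermix for most genes. For Prosalpha3, Rpn1, Rpn5, Rpt4 and Rpt5 all otd-uvi points lie to the left of those of Canton S. For Rpn8 and Rpt2 all lie to their right.

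The alpha subunits form the outer rings of the core, on which the regulatory particle docks. Their median log2 difference was 0.01, with 3 of 6 genes above 0, and no unadjusted p was under 0.05. Prosalpha3 (143313_at), whose yeast counterpart helps to hold the gate closed, read 459 and 469 in wild-type heads against 358, 440 and 397 in the mutant. It was the only alpha gene whose groups did not overlap, and its log2 difference was -0.22 (95% interval -0.55 to 0.11, adjusted p = 0.495). Prosalpha2 (153303_at) spread most among the mutant arrays, at 927, 535 and 640, which enclosed the wild-type signals of 813 and 725 (log2 difference -0.17, adjusted p = 0.758).

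Prosalpha4, Prosalpha5, Prosalpha6 and Prosalpha7, the remaining structural members of the ring, had log2 differences of 0.12, 0.04, 0.05 and -0.02. Their groups overlapped. For Prosalpha6 the wild-type arrays, at 486 and 334, enclosed all 3 mutant arrays. A second probe set of Prosalpha7 (142055_at) was under the controls on all arrays.

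The beta subunits form the inner rings. None of the 6 separated the strains, where 40.5% of probe sets in the somatic signal range did. The median log2 difference of the beta subunits was 0.07. Prosbeta2 (155056_at), the trypsin-like protease of the core, read 702 and 686 in the wild type against 692, 655 and 665 in the mutant. The log2 difference of Prosbeta2 was -0.05 (SE 0.11, 95% interval -0.32 to 0.22, adjusted p = 0.870), the narrowest interval among the 12 core genes. Prosbeta5 (153637_at), the chymotrypsin-like protease, read 530 and 646 in wild-type heads against 525, 652 and 624 in the mutant. The arrays of the strains interleaved for Prosbeta5, and its log2 difference was 0.03 (95% interval -0.33 to 0.39, adjusted p = 0.945).

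Prosbeta3, Prosbeta4, Prosbeta6 and Prosbeta7, beta subunits without an active site, had log2 differences of 0.17, -0.15, 0.14 and 0.11. Their lowest adjusted p was 0.625. Prosbeta4 (146372_at) was low on otd-uvi array 1 alone, at 767 against 991 and 963 on the other mutant arrays, while the wild-type arrays read 987 and 1014. The second probe set of Prosbeta6 (141999_at) was dim, at 8.62 and 21.4 in the wild type against 25.5, 20.5 and 27.0 in the mutant. Its groups overlapped, with a log2 difference of 0.54 (adjusted p = 0.487), on the same side of 0 as the bright probe set.

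In the base, the part that contacts the core, 6 of 7 genes were below 0 (5 of 7 after quantile normalization or cyclic loess), with a median log2 difference of -0.15. Probe sets in the somatic signal range had a median of -0.13, with 34.2% above 0. None of the 7 base genes had an unadjusted p under 0.05, against 24.1% of probe sets in that range. Groups did not overlap for 4 of the 7 (57.1%, 3 lower and 1 higher), against 40.5% of those probe sets. The ATPase Rpt4 (144244_at) read 346 and 316 in the wild type against 271, 306 and 279 in the mutant (log2 difference -0.21, adjusted p = 0.514). Its partner in the ring, Rpt5 (152417_at), read 706 and 682 against 596, 677 and 601 (-0.15, adjusted p = 0.597). For both ATPases every mutant array lay below every wild-type array.

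Rpt2 (142982_at), whose yeast counterpart opens the gate of the core, separated the other way, at 323 and 315 against 399, 344 and 339 in the mutant (log2 difference 0.17, adjusted p = 0.603). Rpt3, another ATPase of the ring, overlapped between groups, with a log2 difference of -0.14.

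Rpn1 (154052_at), a scaffold on which ubiquitin shuttle proteins dock, was lower on each mutant array, at 315, 333 and 303 against 365 and 388. Its log2 difference was -0.24 (95% interval -0.55 to 0.06, adjusted p = 0.432). Rpn13 (147178_at), a ubiquitin receptor, did not separate: wild-type heads read 522 and 471, mutant heads 484, 571 and 435 (log2 difference -0.01, 95% interval -0.37 to 0.36). Rpn2 (154111_at), the scaffold that holds Rpn13, differed more between both wild-type arrays, 137 and 213, than between the group means of 175 ± 53.2 (SD, n = 2) and 140.1 ± 27.2 (SD, n = 3). The log2 difference of Rpn2 was -0.29 (adjusted p = 0.614).

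Both somatic genes with an unadjusted p under 0.05 encode subunits of the lid, the part that deubiquitinates substrates. Rpn5 (152365_at), a structural subunit, read 811 and 895 in the wild type against 628, 696 and 657 in the mutant. The strains did not overlap for Rpn5, and its log2 difference was -0.37 (95% interval -0.65 to -0.08, SE 0.12, adjusted p = 0.244). It ranged from -0.43 to -0.30 when any 1 array was left out. Rpn8 (143270_at), the partner of the deubiquitinase Rpn11, read 96.2 and 175 in the wild type against 235, 232 and 191 in the mutant. Rpn8 was thus higher on all mutant arrays, at a log2 difference of 0.71 (95% interval 0.11 to 1.32, SE 0.26, adjusted p = 0.268). That size rested on Canton S replicate 1: it was 0.31 without that array and 1.12 without Canton S replicate 2.

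The other lid genes had values near 0. Rpn11 (144247_at), the metalloprotease that cuts off ubiquitin chains, read 152 and 195 in the wild type against 179, 186 and 175 in the mutant (log2 difference 0.06, adjusted p = 0.890). Rpn3, Rpn6, Rpn7 and Rpn12, scaffold subunits of the same fold as Rpn5, had log2 differences of -0.13, -0.02, -0.13 and 0.11. Their groups overlapped; Rpn6 ranged from 339 to 538 within the wild type alone.

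The lid genes moved together between the wild-type arrays. All 7 were higher on Canton S array 2 than on array 1, by a median of 0.30 on the log2 scale. All 4 ATPase genes were lower on array 2, but with a median difference of only -0.04. Of probe sets in the somatic signal range, 52.9% were higher on array 2. The 3-prime over 5-prime log2 ratio of control signals, which rises as RNA degrades, averaged 1.41 and 1.37 on these arrays. Between strains the lid's median log2 difference was -0.02, smaller than this spread within the wild type.

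**Figure D2:**
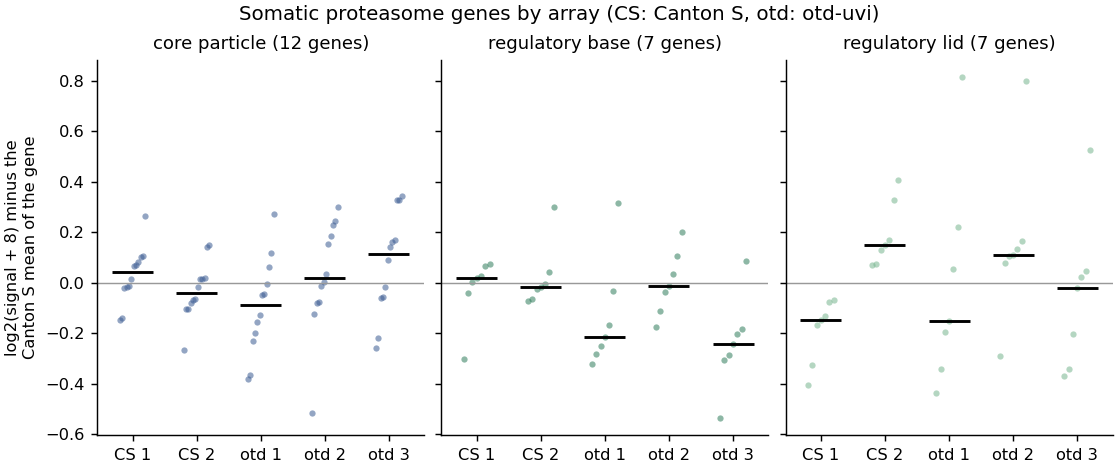
Each point is 1 somatic gene on 1 array, as log2(signal + 8) minus the gene's mean over the 2 Canton S arrays, for the parts of the complex, with their medians. All 7 lid genes lie below 0 on Canton S array 1 and above 0 on Canton S array 2, and the base is lowest on otd-uvi arrays 1 and 3, at medians of -0.22 and -0.24.

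Core and regulatory particle genes were set side by side. The median log2 difference was 0.04 for the 12 core genes, 7 of them above 0, and -0.13 for the 14 regulatory genes, 4 of them above 0. Probe sets in the somatic signal range also had a median of -0.13, and 34.2% of them were above 0. The core thus lay 0.16 above the regulatory particle, and 0.16 to 0.17 under the other scalings, but the counts moved with the scaling. Above 0 were 9 of 12 core and 7 of 14 regulatory genes after quantile normalization, 9 and 6 after cyclic loess, and 4 and 4 after median centring, where the core median was -0.02. Relative to the Canton S mean, the core medians on otd-uvi arrays 1, 2 and 3 were -0.09, 0.02 and 0.12 and the regulatory medians -0.18, 0.09 and -0.20. The regulatory median was therefore the higher one on otd-uvi array 2. On the wild-type arrays the core medians were 0.04 and -0.04 and the regulatory medians -0.07 and 0.07.

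The order of core and regulatory particle turned in 1 of the 5 fits that left out an array: their difference was -0.02 without Canton S replicate 2, and 0.05 to 0.24 in the other 4. This 3-prime over 5-prime log2 ratio averaged 1.32, 1.68 and 1.88 on the otd-uvi arrays, and with it as a covariate the difference was 0.07. Summed signals of the core were 6436 ± 142 (SD, n = 2) in the wild type and 6422 ± 303 (SD, n = 3) in the mutant. Those of the regulatory particle were 5854 ± 456 and 5479 ± 443, a gap smaller than either SD.

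**Figure D3:**
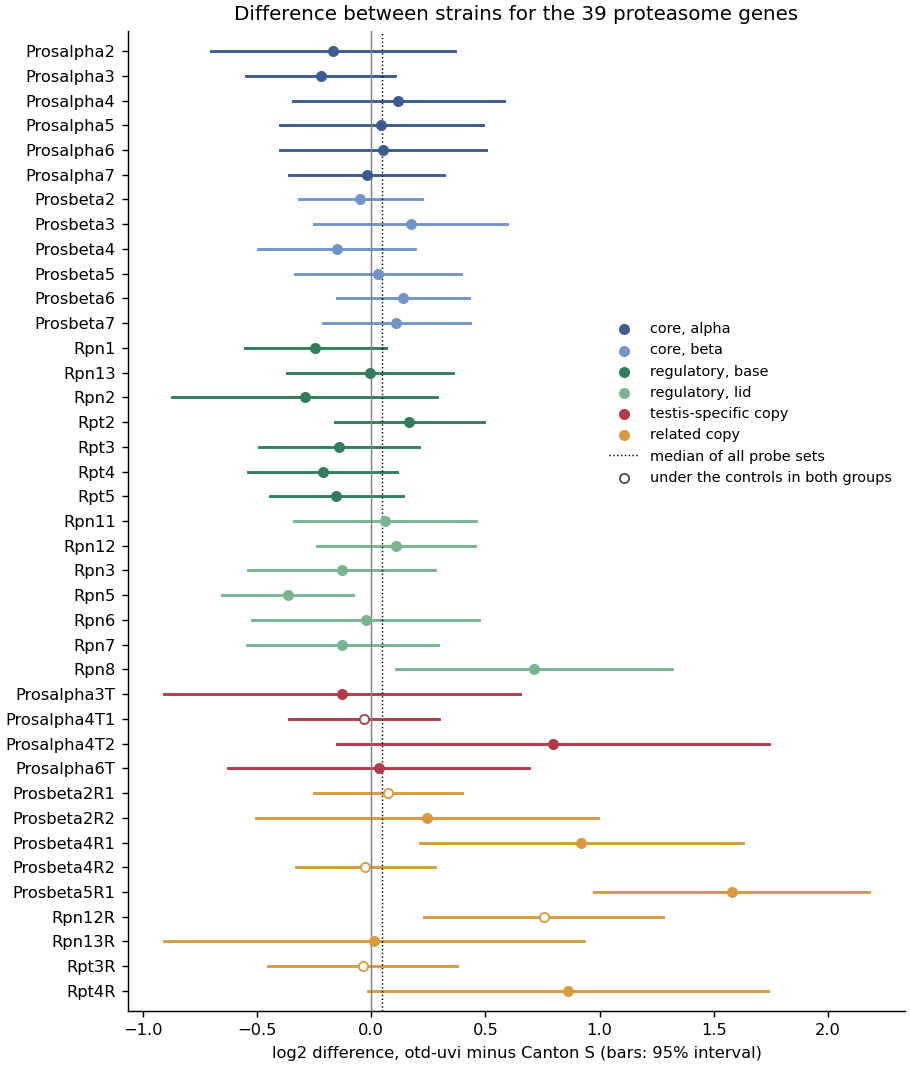
Log2 difference (otd-uvi minus Canton S) of each of the 39 proteasome genes with its 95% interval from limma, by part of the complex; the dotted line is the median of all probe sets, 0.05, and hollow points mark genes under the controls in both groups. Intervals of most somatic genes are short and cross 0, and those of the copies reach up to 2.18.

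The duplicated copies were dim, with signals of 1.10 to 41.2. None of the 13 was measured on all 5 arrays, and 5 exceeded the controls on no array: Prosalpha4T1, Prosbeta2R1, Prosbeta4R2, Rpn12R and Rpt3R. No fold is given for these.

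The testis-specific copies are counterparts of alpha subunits, and none of the 4 had an unadjusted p under 0.05. Prosalpha4T2 (143894_at) read 9.03 and 9.26 in the wild type against 12.4, 18.2 and 41.2 in the mutant, with no overlap, and was measured on 1 of 2 and 2 of 3 arrays. Its log2 difference was 0.80 (95% interval -0.15 to 1.74, adjusted p = 0.410), or 0.43 without otd-uvi replicate 3. Prosalpha6T (146321_at) overlapped between strains, at 11.3 and 17.5 against 17.2, 11.2 and 16.3 in the mutant (log2 difference 0.03, 95% interval -0.62 to 0.69).

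Prosalpha3T (150925_at) read 12.9 and 3.61 in the wild type against 3.03, 5.81 and 11.1 in the mutant. Its log2 difference of -0.13 lay well inside the spread of either strain. Prosalpha4T1 (143895_at), under the controls throughout, read 2.86 and 2.48 against 1.82, 2.01 and 3.59.

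Of the 39 genes the largest difference was that of Prosbeta5R1 (147762_at), a copy of the chymotrypsin-like subunit gene. It read 4.10 and 1.98 in the wild type, under the controls, and 28.3, 20.9 and 25.7 in the mutant, above the controls on all 3 arrays. Group means were 3.04 ± 1.5 (SD, n = 2) and 24.97 ± 3.77 (SD, n = 3). With the brightest control of each Canton S array as the wild-type level, Prosbeta5R1 was 2.69-fold higher in otd-uvi. This ratio is no lower bound, since the mutant signals were not corrected for their own brightest controls of 22.9, 11.2 and 16.2. The fitted log2 difference, also no bound, was 1.58 (SE 0.26, 95% interval 0.98 to 2.18, adjusted p = 0.0519). Its size depended on the treatment of low signals: it was 0.70 with a pseudocount 4 times larger and 3.12 with a floor at the 1st percentile. The adjusted p of Prosbeta5R1 was 0.0433 without the intensity trend, 0.0485 with array weights and 0.0446 with the mean of a gene's probe sets, and from 0.0978 to 0.330 with 1 array left out.

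Prosbeta4R1 (145655_at), a copy of a beta subunit gene, read 4.90 and 1.10 in the wild type against 8.66, 20.5 and 10.1 in the mutant. It exceeded the controls on 1 of 3 mutant arrays and on no wild-type array, so no fold is given (adjusted p = 0.235). Rpn12R (148779_at), a relative of the lid subunit Rpn12, stayed under the controls at 1.59 and 2.59 against 7.65, 6.55 and 13.6 (adjusted p = 0.206). Rpt4R (148618_at), a relative of the ATPase Rpt4, read 27.1 and 9.09 in the wild type against 39.2, 39.2 and 31.7 in the mutant. It was measured on 1 wild-type array and all mutant arrays, and did not overlap. The log2 difference of Rpt4R was 0.86 (95% interval -0.01 to 1.74, adjusted p = 0.338), but 0.34 without Canton S replicate 2 and 1.38 without Canton S replicate 1.

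Prosbeta2R2 and Rpn13R, a copy of the trypsin-like subunit gene and a relative of the ubiquitin receptor, overlapped between groups, with log2 differences of 0.25 and 0.01. Prosbeta2R1, Prosbeta4R2 and Rpt3R had signals from 1.68 to 5.33.

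**Figure D4:**
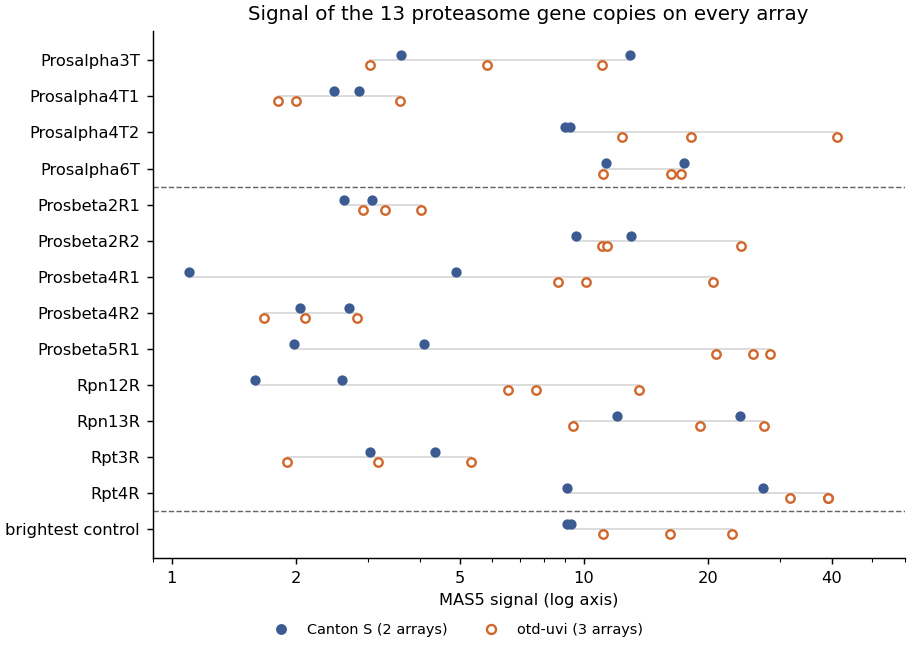
MAS5 signal (log axis) of the 4 testis-specific and 9 related copies, beside the brightest mouse or yeast control of each array, for 2 Canton S and 3 otd-uvi arrays. The brightest control lies further right on the otd-uvi arrays, and Prosbeta5R1 exceeds it on those 3 arrays and not in Canton S.

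Signals near the controls shifted between the strains. The 5476 probe sets in the copies' range of mean signal had a median log2 difference of 0.19, beside 0.00 for the testis-specific and 0.25 for the related copies. After quantile normalization these copies had medians of -0.18 and -0.02. The groups did not overlap for 5 of the 13 copies (38.5%), each time with otd-uvi higher, against 29.99% of the probe sets in that signal range and 34.0% of all probe sets in either direction (18.6% higher). Mouse and yeast controls had a median signal of 3.69 and 3.07 on the wild-type arrays against 7.22, 7.92 and 7.03 on the mutant arrays. The part of this shift in the values of the copies was not tested.

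**Figure D5:**
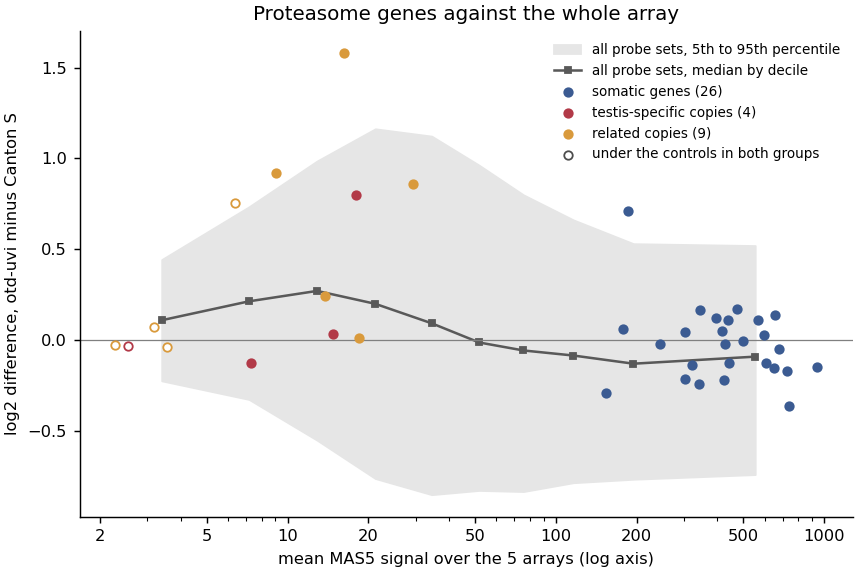
Log2 difference (otd-uvi minus Canton S) against the mean signal over 5 arrays (log axis) for the 39 genes, over the median and the 5th to 95th percentiles of all probe sets in bins of mean signal. Somatic genes sit at high signals near 0, with Rpn8 apart at 0.71, and Prosbeta5R1 is the highest point at 1.58.

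Transcripts known from the testis were set beside the copies. Of 24 genes 2 rose, against 0.322% of all probe sets: Mst84Db and Mst84Dd, with log2 differences of 2.54 and 2.31 (adjusted p = 0.0221 and 0.0467). Each of these passed in 1 of the 5 fits that left out an array. The list's median was 0.39, with 19 of 24 above 0 (17 after quantile normalization or cyclic loess). Above 0 were 55.2% of all probe sets and 72.8% of those in the copies' signal range. An unadjusted p under 0.05 was reached by 9 of the 24, all higher, where 7.77% of all probe sets were. The others were Mst84Dc, Mst87F, Mst98Ca, Mst98Cb, tomb, Pif1A and janB, the last of which was under the controls on every array. The list's summed signal was 1078 to 1175 in the wild type and 1328 to 2004 in the mutant. Most of the wild-type sum came from bol, which read 898 and 828 there against 753, 757 and 931 in the mutant (log2 difference -0.09). On every array 9 of the list's genes, among them janB, dj, fzo and nht, were under the controls. The part of testis transcripts in the values of the copies was not tested.

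None of the listed partners of the proteasome with a probe set of their own passed the test, where 0.773% of all probe sets did. At that share, a count of 0 in lists this short says little about the partners. Ecm29, Uba1, Ubqn and Xbp1 were not analysed here. Of 7 listed assembly factors and activators 6 were measured. Uch-L5, the deubiquitinase that docks on Rpn13, read 65.7 and 31.7 in the wild type against 77.9, 89.7 and 95.8 in the mutant, without overlap (log2 difference 0.82, adjusted p = 0.279). It was 0.37 without Canton S replicate 2 and 1.27 without Canton S replicate 1. The other 5, which include Pomp, a chaperone of core assembly, and REG, an alternative cap, differed by at most 0.17 in size.

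Ubiquitin and its activation were covered by 7 of 8 listed genes. The polyubiquitin gene Ubi-p63E read 3651 and 3508 in the wild type against 3186, 2477 and 2152 in the mutant, all lower (log2 difference -0.48, adjusted p = 0.270). Among shuttle factors and partners of the unfoldase TER94, also 7 of 8 listed, none had an unadjusted p under 0.05. TER94 itself had a log2 difference of -0.50 (adjusted p = 0.372), and its cofactor Ufd1 one of 0.42 (adjusted p = 0.463). Without Canton S replicates 1 and 2 in turn, TER94 was at -0.79 and -0.22 and Ufd1 at 0.60 and 0.23.

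Regulators of proteasome and stress genes had a median log2 difference of -0.23, with 10 of 10 measured genes below 0 (8 of 10 after quantile normalization or cyclic loess). Above 0 were 55.2% of all probe sets and 34.2% of those in the somatic signal range, mean signals of 154 to 944. Most regulators were dimmer than that range, and crc was brighter. In bins of mean signal, all probe sets had median log2 differences from 0.20 at a mid signal of 21.2 to -0.09 at 116. Only 1 regulator, Atf6, had an unadjusted p under 0.05. The counterpart of the mammalian factors that drive proteasome genes, cnc, was at -0.23 (adjusted p = 0.820), and its partner maf-S at -0.25. With 1 array left out, cnc ran from -0.77 (without Canton S replicate 1) to 0.32 (without Canton S replicate 2) and maf-S from -0.41 (without otd-uvi replicate 3) to -0.07 (without otd-uvi replicate 1). Atf6, a sensor of unfolded proteins in the endoplasmic reticulum, read 136 and 108 in the wild type against 74.0, 87.5 and 53.7 in the mutant, without overlap (-0.72, adjusted p = 0.258). The COP9 signalosome, a complex built on the same plan as the lid, had a median of 0.16 over 9 genes, 6 of them above 0 and none with an unadjusted p under 0.05. CSN4 had a log2 difference of 0.46 (adjusted p = 0.557), which was 0.00 without Canton S replicate 1 and 0.92 without Canton S replicate 2. CSN1a was under the controls throughout.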

How the data were processed

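Expression in pupal heads was measured on 5 arrays, 2 of Canton S and 3 of otd-uvi, each from its own extraction, so that p-values measure the spread between extractions. The deposited values are signal intensities on a linear scale, which the authors computed with MAS5 per the submitters' processing notes; version, settings, scaling target and detection calls are not given in the sources used here. The analysis kept 13966 probe sets and left out 44 controls. Gene names came from an array annotation table (12443 probe sets with 1 gene, 327 with several, 1196 with none) and were updated by gene identifier, which changed no member. A pseudocount of 8, the 20th percentile of the signals after rounding, was added before taking log2. The model was limma 3.58.1 under R 4.3.3 (lmFit and eBayes, prior variance following mean intensity), contained strain alone and used Benjamini-Hochberg adjustment. The fold given for Prosbeta5R1 sets the mean log2 signal of otd-uvi against the brightest control of each Canton S array. The replicate numbers were not used as pairs. Scripts were tested on simulated data.

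Members, neighbouring lists and markers were chosen with earlier results of these data known. Named were all members, and from each list the genes with an unadjusted p under 0.05 or else the 2 largest differences. The genes cnc, maf-S, Pomp, REG, dj, fzo and nht were named for their roles, and bol for its share of a summed signal. Both choices were made with their values known. Promoter and protein sequences of the members were not used here. The alternatives covered normalization, pseudocount or floor, a filter on dim probe sets, prior, array weights, replicate block, RNA integrity covariate, each array left out and the choice of probe set. Medians of the somatic genes, the related copies and the single rings, base and lid were added after seeing the data.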

Additional observations from a re-analysis of the deposited data

How the results depend on the processing

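No proteasome gene passed in 13 of the 16 alternative fits, among them all 5 that left out an array; 1 gene, Prosbeta5R1, passed without the intensity trend, with array weights and with the mean of a gene's probe sets. The sign of the log2 difference turned in at least 1 of the 16 fits for 23 of the 39 genes and in none for the other 16, which include Rpn5, Rpn8, Prosbeta5R1, Rpt4R and Prosalpha4T2. Under quantile normalization the medians were 0.16 for the core, 0.12 for all somatic genes, -0.18 for the testis-specific copies and -0.017 for the related copies, and testis-specific minus somatic was -0.30 (0.02 as reported). Under cyclic loess the core, somatic and testis-specific medians were 0.15, 0.095 and -0.17, and that difference was -0.27. With only members above the controls in both groups, Prosalpha4T2 and Prosalpha6T alone remained of the testis-specific copies. Their median was 0.41 and the difference from the somatic median 0.44. Over the whole array 208 probe sets passed with the dimmest 40% left out, 8 with the 3-prime to 5-prime ratio as covariate and 1 with the replicate block, against 108. Same-numbered arrays shared deviations at correlations of -0.0045 and 0.12. Deviations of the 2 Canton S arrays mirror each other, so these values cannot decide whether the numbers pair the arrays. With the replicate block no member passed and core minus regulatory was 0.051. That block takes up otd-uvi replicate 3, which has no Canton S partner, so its estimate is the one without that array. Without 1 array, 2 to 22 probe sets and 0 members passed. The core median then ran from -0.043 to 0.071, the regulatory from -0.22 to -0.020, core minus regulatory from -0.023 to 0.24, the testis-specific median from -0.060 to 0.15 and testis-specific minus somatic from -0.028 to 0.24. The causes were not tested. The dim filter kept 27 members, the 26 somatic genes and Rpt4R, and so gave no median for the copies. A fit with a single Canton S array takes that array's spread from otd-uvi. Promoter motifs and protein identities, planned as descriptions, were not run. Signal close to the controls limits the copies, and the number of arrays limits the somatic genes.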
